A study of Aspergillus niger with 6 samples.

Results

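Xylan, a hemicellulose of plant cell walls, is a chain of xylose units that can carry glucuronic acid, arabinose and acetyl groups. Some of the arabinose can be joined to ferulic acid. These groups differ between plants, and those of the willow used here were not measured. Xylanases cut the chain, and a further set of enzymes removes these side groups. For Aspergillus niger, 8 genes for such side-chain enzymes were followed: axhA (An03g00960), abfB (An15g02300), abfA (An01g00330) and An08g01710 for arabinose, aguA (An14g05800) for glucuronic acid, aceA (An12g05010) for acetyl groups, and faeA (An09g00120) and faeB (An12g10390) for ferulic acid. They were chosen by their identifiers, and each of the 8 matched 1 of the 15431 genes listed. The symbols of 6 genes are those of RefSeq (assembly ASM285v2), whereas An08g01710 and An12g10390 have no symbol there and carry their roles from the list alone.

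RNA was sequenced from mycelium of strain N402 in 3 conditions, with 2 shake flask cultures (A and B) in each. Mycelium was taken after 48 h in medium with 1% glucose, or was washed after such a culture and moved to 1% ball-milled willow for 24 h, or received glucose after 24 h on willow and was taken 5 h later. All 6 cultures therefore had grown on glucose first, and carbon source, transfer and culture time differ together between glucose and willow, so that their effects cannot be told apart. No culture stayed on willow for the further 5 h without glucose.

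Reads assigned to genes numbered 434508 to 775667 per library and were 1.46% to 3.15% of all reads, with 58.4% to 75.7% aligned to several places. Counts were scaled to the library sizes of tested genes (CPM, the count scaled per library with TMM factors). The glycolysis genes gpdA and pkiA, taken as markers of growing mycelium, were at 339.6 to 1145 and 208 to 634 CPM over the 6 libraries. Both were lower on willow than on glucose (log2 fold change -1.26 ± 0.37 and -0.89 ± 0.33 SE, edgeR adjusted p = 0.00973 and 0.0415), and higher after glucose addition than on willow (1.48 and 1.41, edgeR adjusted p = 0.00290 and 0.00166). The 2 identifiers listed as markers of conidia were also detected. An01g10540 had 1 to 11 counts per library (1.37 and 3.63 CPM on glucose, 23.9 and 11.1 on willow, 4.94 and 11.6 after glucose). An09g05730 was at 63.1 and 75.0 CPM on glucose, 181 and 163 CPM with willow, then 143 and 99.4 CPM, and it rose on willow (log2 fold change 1.31 ± 0.35 SE, edgeR adjusted p = 0.00560). Their part in the results below was not tested. Mycelium is bulk material, so that fewer cells expressing a gene and less RNA per cell cannot be told apart.

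The first question was how these transcripts differed between willow and glucose. Genes for the removal of arabinose, glucuronic acid and acetyl groups were among the highest of all genes on willow and at 47.1 CPM or lower in each glucose culture, namely axhA, aguA and aceA, while the other arabinose genes stayed far lower. Together the 8 genes held 0.0134% (95% Wilson interval 0.0108% to 0.0165%) and 0.0174% (0.0147% to 0.0206%) of gene reads in glucose cultures A and B. On willow they held 2.69% (2.65% to 2.74%) and 2.79% (2.74% to 2.84%). After glucose addition the shares were 0.0117% (0.00956% to 0.0144%) and 0.0233% (0.0192% to 0.0283%). The willow cultures thus stood above all 4 others, which overlapped between conditions. These intervals cover counting error only.

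**Figure D1:**
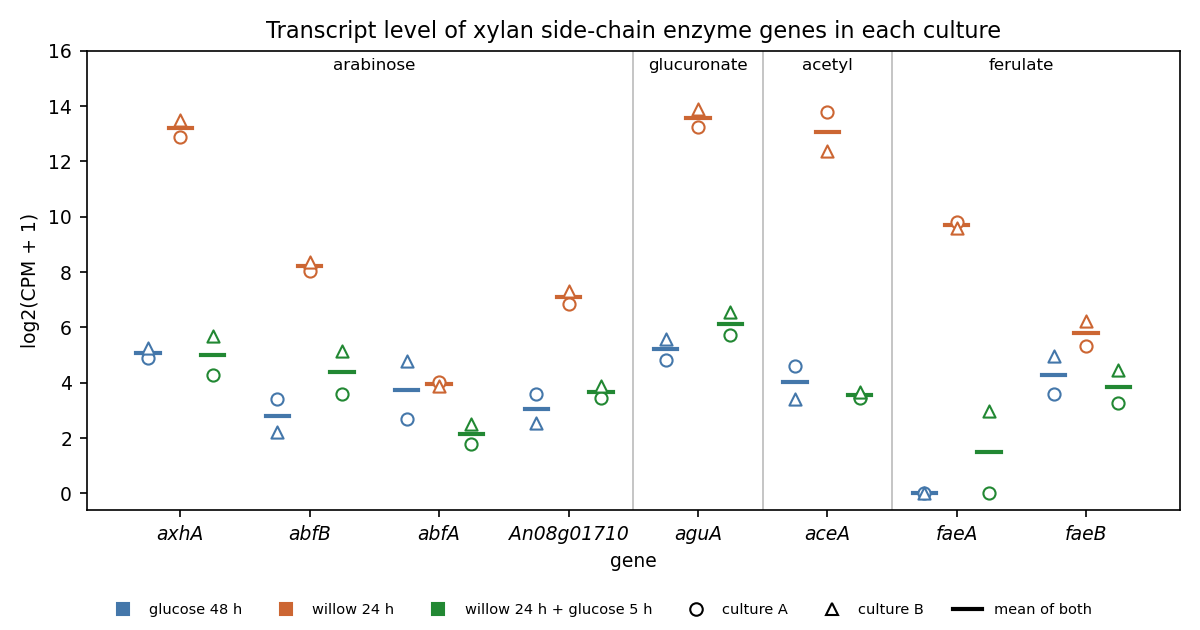
Transcript level of each gene as log2(CPM + 1), by the group that its enzyme removes. Circles are culture A, triangles culture B and bars the mean of both log2 values; axhA, aguA and aceA stand highest on willow, faeA is at 0 in both glucose cultures, and abfA shows no rise on willow.

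Among the arabinose genes, axhA encodes an arabinoxylan arabinofuranohydrolase, which frees arabinose from the xylan chain. Its transcripts stood at 28.8 and 37.5 CPM in glucose cultures A and B, at 7561 and 11593 CPM on willow, and at 18.5 and 50.9 CPM after glucose. Both willow cultures were far above the other 4, and the glucose-added cultures lay on either side of the glucose cultures. The rise on willow had a log2 fold change of 8.16 ± 0.58 (SE; edgeR adjusted p = 6.2e-11), from 33.1 ± 6.14 to 9577 ± 2851 CPM (mean ± SD, n = 2).

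The arabinofuranosidase gene abfB, whose product takes arabinose from arabinan as well as from arabinoxylan, had 9.60 and 3.63 CPM on glucose, 263 and 329 CPM on willow, and 11.1 and 34.7 CPM after glucose. It rose on willow by 5.47 ± 0.53 on the log2 scale (edgeR adjusted p = 1.1e-08), and by 6.27 when glucose culture A was left out. An08g01710, listed with the arabinofuranosidases, had 11.0 and 4.84 CPM on glucose, 115 and 158 CPM on willow, and 9.88 and 13.9 CPM after glucose. Its log2 fold change on willow was 4.09 ± 0.53 (edgeR adjusted p = 1.3e-06), or 4.75 without glucose culture A. For both genes the willow cultures were above all others, at a level that rested on 53 to 121 counts per library.

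The arabinofuranosidase gene abfA did not share this pattern. It had 4 and 22 counts in glucose cultures A and B (5.49 and 26.6 CPM), 7 and 5 counts on willow (15.2 and 13.8 CPM), and 2 counts in each culture after glucose (2.47 and 4.62 CPM). Both willow values lay between the glucose values, and the glucose-added values were the lowest of all 6. The gene did not meet the count filter of the test. The ratio of willow to glucose counts, scaled to library size, was 0.875 with an exact 95% counting interval of 0.402 to 1.80, and without the filter edgeR gave a log2 fold change of -0.28 (adjusted p = 0.869).

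The alpha-glucuronidase gene aguA, whose product removes methylglucuronic acid from xylan fragments, had 27.4 and 47.1 CPM on glucose, 9784 and 15282 CPM on willow, and 51.9 and 92.5 CPM after glucose. The 3 conditions did not overlap in CPM, though glucose culture B and glucose-added culture A were close. The change from glucose to willow, from 37.3 ± 13.9 to 12533 ± 3888 CPM (mean ± SD, n = 2), had a log2 fold change of 8.38 ± 0.59 (edgeR adjusted p = 5.4e-11).

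The acetyl xylan esterase gene aceA had 23.3 and 9.67 CPM on glucose, 13983 and 5341 CPM on willow, and 9.88 and 11.6 CPM after glucose. Its log2 fold change on willow was 9.20 ± 0.65 (edgeR adjusted p = 6.0e-11). Single cultures moved this estimate more than 1.5-fold, to 8.34 without willow culture A and to 9.93 without glucose culture A, and the call held each time. Of the 8 genes it had the widest spread on willow, where A exceeded B 2.62-fold. The axhA, aguA, abfB, An08g01710 and faeB transcripts were instead 1.25-fold to 1.91-fold higher in B, and those of faeA 1.14-fold higher in A. Over all 6181 tested genes the median difference between the willow cultures was 1.39-fold (on log2 CPM with a prior count), and 9.06% differed at least as much as aceA. Of 116 genes with at least 1000 counts on willow, 3 did so, aceA among them. A further gene of the 3, named after its values were seen, was An09g00840, at 34184 CPM in A and 12620 CPM in B, and the last of the 3 had no An identifier and was higher in B.

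**Figure D2:**
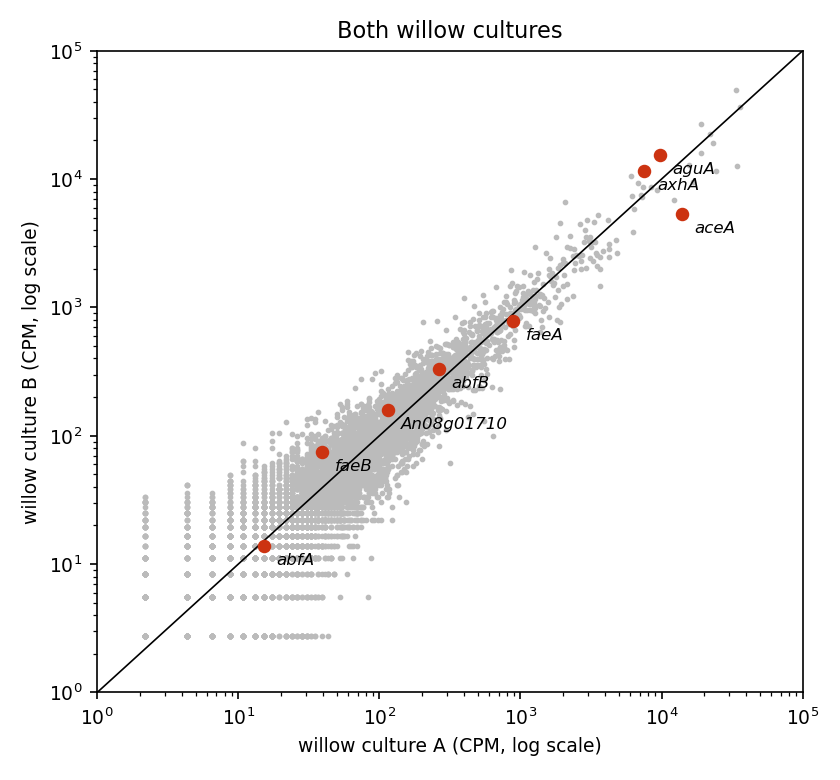
CPM of willow culture A (x axis) and B (y axis), both on log scales, for tested genes with a count in both (grey) and the 8 side-chain genes (red); the line marks equal values. aceA lies to the right of the line, at 13983 against 5341 CPM, whereas aguA and axhA lie above it.

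Feruloyl esterases cut the ester between ferulic acid and arabinose. Not a single read of faeA was counted in the glucose cultures, against 408 and 282 on willow (888 and 780.4 CPM) and 0 and 3 with glucose added (0 and 6.94 CPM). Set against 3 counts over both glucose libraries, or 1.93 CPM, its willow level of 834 ± 76.2 CPM (mean ± SD, n = 2) was at least 433-fold higher (edgeR adjusted p = 5.3e-11). Only the willow cultures had more than 3 counts of this transcript. The gene faeB had 11.0 and 30.2 CPM on glucose, 39.2 and 74.7 CPM on willow, and 8.64 and 20.8 CPM after glucose. Its willow and glucose cultures did not overlap, but its log2 fold change of 1.42 ± 0.59 did not pass the test (edgeR adjusted p = 0.0684). The estimate was 2.34 without glucose culture B and 1.83 without willow culture A. It was 0.89 without glucose culture A, 0.91 without willow culture B and 0.10 by limma-trend on RPKM (adjusted p = 0.693). All faeB values were at 0.181 to 0.630 RPKM, where the log2(RPKM + 1) scale of that fit understates a change. Of 14 alternatives, 3 called the gene higher and 11 did not.

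On willow, 6 of the 7 tested side-chain genes were called higher and none lower (edgeR adjusted p under 0.05), where 31.1% of all 6181 tested genes were called, 17.6% higher and 13.5% lower. Without adjustment, 7 had p under 0.05 in that direction and none in the other (no share of all genes is given here). DESeq2 called 6 higher and 0 lower, beside 965 and 575 of the 6181 tested genes. The groups did not overlap for 7 of the 8 genes, as for 64.6% of all genes tested. The genes abfB, An08g01710, aceA and faeA met the filter only with the willow libraries. This favours a call of higher on willow, so that the count says nothing by itself. The other 3 tested genes, axhA, aguA and faeB, met it without them.

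Levels of different genes were compared per length of gene model, with the deposited RPKM values (reads scaled to gene length and to all reads of the library) within a library. In willow culture A the order was aceA at 279, axhA at 118, aguA at 74.0, faeA at 17.3, An08g01710 at 1.47, abfB at 1.22, faeB at 0.479 and abfA at 0.124 RPKM. In willow culture B it was axhA at 115, aguA at 73.1, aceA at 67.3, faeA at 9.60, An08g01710 at 1.27, abfB at 0.968, faeB at 0.578 and abfA at 0.0710 RPKM. The order differed between the cultures in the place of aceA alone, so that aceA could not be ranked against axhA and aguA. The steps from these 3 genes to faeA and from faeA to the other arabinofuranosidase genes exceeded the spread between cultures. An08g01710 and abfB were close, with abfB in A at 1.22 and An08g01710 in B at 1.27 RPKM.

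Among all listed genes, aceA was the 8th highest by RPKM in willow culture A and the 18th in B, axhA the 17th and 13th, and aguA the 26th and 17th. By contrast faeA ranked 138 and 159, and abfB 1880 and 1591. The RPKM of a gene depends on its model length, which the counts and RPKM values put at 4122 bp for abfB and at 961 to 2532 bp for the other 7 genes. Whether the long abfB model holds more than the coding gene was not tested, so its RPKM and rank are uncertain.

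Shares of some side-chain transcripts differed between willow and glucose, while those of axhA, aguA and aceA overlapped. Of the summed RPKM of the 8 genes, axhA, aguA and aceA made up 24.1%, 15.1% and 56.7% in willow culture A and 42.9%, 27.3% and 25.1% in B. On glucose they made up 30.3%, 14.0% and 31.3% in culture A and 32.6%, 19.8% and 10.7% in B. The share of faeB was 0.0975% and 0.216% on willow, against 9.03% and 20.5% on glucose and 8.94% and 10.2% after glucose. An08g01710 likewise held 0.299% and 0.475% on willow, and 3.42% to 10.6% in the other 4 cultures. Outside willow these shares rest on 0 to 42 counts per gene and library.

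**Figure D3:**
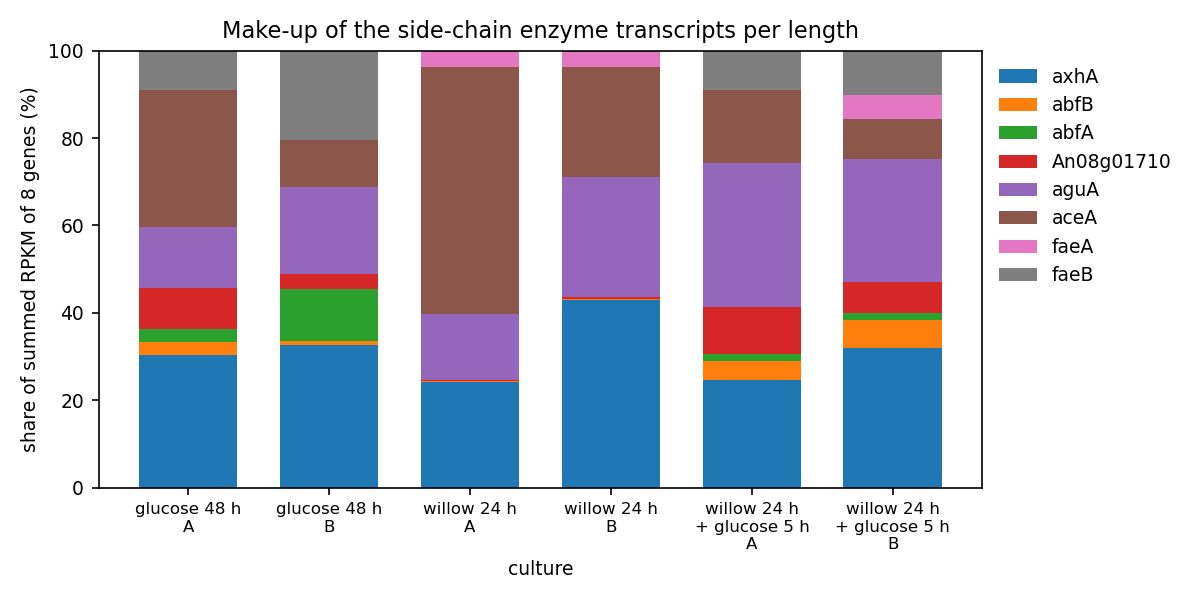
Share of each gene in the summed RPKM of the 8 genes, in percent, for each culture. The genes axhA, aguA and aceA fill nearly all of both willow bars, with aceA at 56.7% in culture A and 25.1% in B, while faeB holds 8.94% to 20.5% of the other 4 bars.

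The second question was how the transcripts differed once glucose had been added for 5 h. This comparison uses the same willow cultures as the first, so that a willow value that is high by chance would raise the change in each. All 7 tested genes were lower than on willow, where 37.8% of all tested genes were called, 20.5% lower and 17.2% higher (edgeR adjusted p under 0.05). None was higher, at an unadjusted p under 0.05 or by DESeq2, which called 756 of all 6181 tested genes higher. The groups did not overlap for all 8 genes, as for 68.5% of all tested genes, and the filter applies here as above.

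The genes highest on willow fell to well under 1% of that level. For aceA, 0.111% of the willow mean was left (10.7 ± 1.19 CPM; log2 fold change -9.81 ± 0.69, edgeR adjusted p = 1.8e-10), and the estimate was -8.97 without willow culture A. For axhA 0.362% was left (34.7 ± 22.9 CPM; -8.19 ± 0.59, edgeR adjusted p = 1.8e-10), with estimates of -7.55 and -9.01 without glucose-added culture A and B. For aguA 0.576% was left (72.2 ± 28.7 CPM; -7.47 ± 0.57, edgeR adjusted p = 3.6e-10). Transcripts of faeA were down to 3 counts in both cultures together, all in B. The willow level was 348-fold higher by counts, with an exact 95% counting interval of 119 to 1692 (edgeR adjusted p = 4.3e-10). The call held without glucose-added culture A (fitted log2 fold change -6.87, edgeR adjusted p = 6.3e-06) and without B (adjusted p = 7.6e-06), where no count was left after glucose and no fold is given.

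For abfB, An08g01710 and faeB, lower on willow, a larger percentage was left, but it is a percentage of that lower willow level. In CPM these genes ended at 11.9 to 22.9, against 10.7 to 72.2 for aceA, axhA and aguA. For abfB 7.73% was left (22.9 ± 16.7 CPM; log2 fold change -3.82 ± 0.47, edgeR adjusted p = 8.0e-07), with estimates of -3.08 and -4.72 without glucose-added culture A and B. For An08g01710 8.70% was left (11.9 ± 2.82 CPM; -3.55 ± 0.52, edgeR adjusted p = 1.1e-05). For faeB 25.9% was left (14.7 ± 8.60 CPM; -2.03 ± 0.64, edgeR adjusted p = 0.0153). The faeB result did not pass without willow culture B (-1.53, edgeR adjusted p = 0.126), without glucose-added culture A (-1.42, adjusted p = 0.205) and by limma-trend on RPKM (-0.35, adjusted p = 0.224), and the estimate was -2.69 without glucose-added culture B. The limma-trend scale understates the change of a gene as low as faeB. For the untested abfA 24.4% was left, on 4 counts in all. The willow to glucose-added count ratio of abfA was 4.54 with a counting interval of 1.38 to 19.3. Without the filter edgeR did not call it (-1.99, adjusted p = 0.136). Whether the members differ from each other in the size of these changes was not tested.

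**Figure D4:**
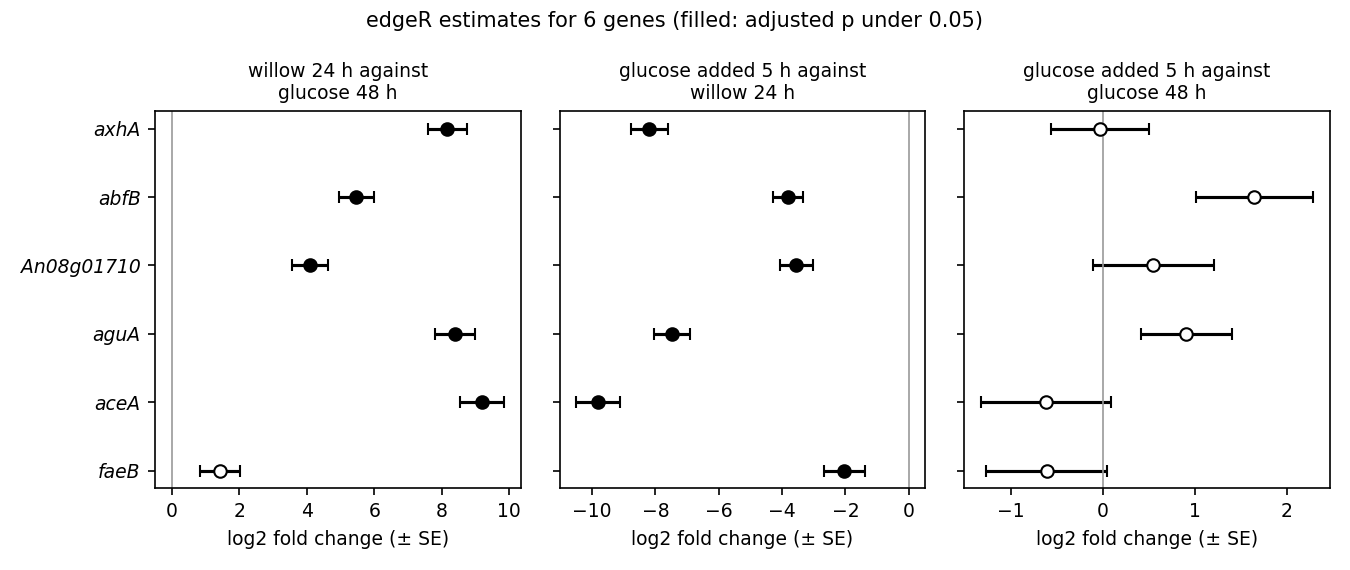
edgeR log2 fold changes with their standard errors for 6 genes in the 3 comparisons; filled points passed an adjusted p of 0.05. On willow 5 of the 6 are filled, from 4.09 to 9.20; after glucose all 6 are filled, from -2.03 to -9.81; and none is filled against glucose 48 h (faeA, with no counts on glucose, and the untested abfA are not drawn; the x axes differ).

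The third comparison set the glucose-added cultures against those grown on glucose for 48 h. It shares its libraries with the other comparisons. None of the 7 tested genes was called by edgeR, where 18.9% of all tested genes were, 10.0% higher and 8.87% lower. DESeq2 called none of them, but 462 higher and 368 lower among all 6181 tested genes. At an unadjusted p under 0.05 the count was 2 higher, abfB and faeA, and 0 lower (no share of all genes is given here). The groups did not overlap for 3 of the 8 genes, aguA, abfB and abfA, as for 57.9% of all genes tested. Missing the threshold does not show that the levels were alike.

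The estimate for abfB was 1.65 ± 0.64 on the log2 scale (edgeR adjusted p = 0.0732), with both glucose-added cultures above both glucose cultures, and without glucose-added culture A it passed the test (2.38, adjusted p = 0.0315). Without glucose-added culture B it was 0.75 (edgeR adjusted p = 0.591), and without glucose culture A 2.44 (adjusted p = 0.0545). For aguA it was 0.91 ± 0.50 (edgeR adjusted p = 0.229), also without overlap in CPM. Its nearest cultures were at 47.1 CPM on glucose and 51.9 CPM after glucose. In RPKM its groups overlapped, with 0.608 in glucose culture B and 0.573 in glucose-added culture B. The estimates for axhA (-0.03 ± 0.53, edgeR adjusted p = 0.981), An08g01710 (0.55 ± 0.66, adjusted p = 0.634), aceA (-0.62 ± 0.71, adjusted p = 0.621) and faeB (-0.61 ± 0.66, adjusted p = 0.595) came from groups that overlapped. Those of axhA, aceA and faeB changed sign when a single culture was left out, and that of An08g01710 was 1.21 without glucose culture A (edgeR adjusted p = 0.396). For abfA the count ratio of glucose to glucose-added cultures was 5.19 (counting interval 1.80 to 20.5), and edgeR without the filter gave -2.26 (adjusted p = 0.0818). Glucose culture B held 22 of the 26 abfA counts on glucose, and the interval leaves out this spread between cultures. With 0 counts on glucose and 3 after glucose addition, both groups of faeA were at or under the limit of 3 counts, and no ratio is given. Glucose-added culture B was above A for all 8 genes, by 1.17-fold to 3.12-fold in CPM for the 7 with a count in both. These folds rest on 2 to 42 counts per gene and library, and this direction was not tested. Of all tested genes, 49.6% were higher in B. Reads assigned to genes were 3.15% of all reads in A and 1.59% in B, and the part of this difference in the result was not tested.

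Genes for the xylan chain itself were set beside the side-chain genes. Of 5 identifiers listed, 4 were tested (xynB, xynA, xlnD and An15g04550), and all 4 were called higher on willow and lower after glucose, beside 17.6% and 20.5% of all tested genes. An15g04550 met the filter only with the willow libraries. The xylanase genes xynB and xynA had log2 fold changes of 9.46 ± 0.65 and 9.07 ± 0.63 on willow (edgeR adjusted p = 4.6e-11 and 5.0e-11), and the beta-xylosidase gene xlnD, whose product frees xylose from short chains, 7.89 ± 0.51 (adjusted p = 2.6e-11). Per length, xynB and xynA stood at 116 and 113 RPKM in willow culture A and at 116 and 122 RPKM in B, next to axhA at 118 and 115 RPKM. The fifth identifier, An14g07390, had 1 count in all 6 libraries. The summed RPKM of the 8 side-chain genes was 1.84 times that of the 5 chain genes in willow culture A and 1.03 times in B. In the other cultures this ratio ranged from 1.32 to 4.49, on 0 to 23 counts per chain gene and library.

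Arabinose and xylose freed from xylan pass into pentose catabolism, whose first enzyme for xylose is the reductase encoded by xyrA. Of 5 identifiers listed for this pathway, 4 were tested, and all 4 were higher on willow and lower after glucose, beside 17.6% and 20.5% of all tested genes. Of the 4, xyrA and An01g10920 met the filter only with the willow libraries. The xyrA transcripts went from 9.60 and 10.9 CPM on glucose to 2129 and 2939 CPM on willow (7.92 ± 0.51, edgeR adjusted p = 2.2e-11) and to 9.88 and 23.1 CPM after glucose. The endoarabinanase gene abnA, whose product cuts arabinan rather than arabinoxylan, had 0 and 1 counts in the glucose cultures, 284 and 247 with willow, and 11 and 3 once glucose was added. It was called higher 5 h after glucose addition than on glucose (edgeR adjusted p = 0.00615), with a count ratio of 17.5 and a counting interval of 2.67 to 742, and it met the filter only with the willow libraries. The other identifier of that list, An16g02730, fell on willow (-3.19 ± 0.45, edgeR adjusted p = 4.0e-06).

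Of the regulators listed, xlnR encodes the activator of xylanolytic genes and creA the carbon catabolite repressor. The xlnR transcripts were at 15.1 and 30.2 CPM on glucose, 283 and 288 CPM on willow and 48.2 and 34.7 CPM after glucose (3.63 ± 0.41 on willow, edgeR adjusted p = 1.3e-07; -2.75 ± 0.39 after glucose, adjusted p = 6.0e-06). Those of creA were at 28.8 and 41.1, 91.4 and 94.1, and 45.7 and 34.7 CPM (1.40 ± 0.43 on willow, edgeR adjusted p = 0.0144; -1.18 ± 0.43 after glucose, adjusted p = 0.0348). An04g08600, the last of the list, was not called in any of the 3 comparisons (edgeR adjusted p = 0.486, 0.480 and 0.172).

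The likeness of profiles was measured as the Euclidean distance between log2 CPM values (with a prior count) over the 6 libraries. Each gene was centred on its mean and set beside 6139 other genes with a mean of at least 10 CPM. The distance is a description of these libraries. Distances of faeA, at 0 to 3 counts per library outside willow, depend on the prior count. The prior count also enters those of An08g01710, abfB and aceA, at 4 to 8, 3 to 15 and 5 to 17 counts there. The profile nearest to aguA was that of xynA (distance 0.690), followed by xyrA (0.875). The nearest to axhA were the cellobiohydrolase gene cbhA (1.00), xyrA (1.06) and aguA (1.09), and faeA was near An16g01880 (0.662) and xyrA (0.799). The nearest to aceA, An12g05710, stood at 1.56. Those of abfB and An08g01710 were An04g09360 (0.864) and An02g09090 (0.214), and that of faeB was An08g02590 (0.401). Among the members, aguA and faeA were 1.02 apart, abfB and An08g01710 1.50 apart, and aceA and faeB 8.96 apart.

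Each gene's next neighbour on either side in the RefSeq gene order gave 16 genes, of which 8 were tested and 4 had no count in any library. On willow 3 of the 8 were called higher and 1 lower, beside 17.6% and 13.5% of all tested genes, and after glucose 3 were lower and 1 higher, beside 20.5% and 17.2%. Of these, An08g01720 and An12g05000 met the count filter only with the willow libraries. An08g01720, next to An08g01710, had 0 counts on glucose, 22 and 15 with willow, and 0 and 3 once glucose was added (edgeR adjusted p = 7.9e-05 on willow). An15g02290, next to abfB, rose on willow (2.87 ± 0.45, edgeR adjusted p = 1.9e-05), as did An12g05000, next to aceA (2.80 ± 0.78, adjusted p = 0.00720). Both neighbours of faeA and both of faeB were untested, and of the latter An12g10400 had 9 and 11 counts on glucose, 1 in each willow culture, and 10 and 6 with glucose added.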

How the data were processed

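Total RNA was depleted of ribosomal RNA and, per the labels' protocols, sequenced from both ends (50 and 35 bp) with a SOLiD instrument. Per the file headers, the authors deposited counts and RPKM values per gene model; the counts are whole reads and not normalized. HTSeq is named without a version in the submitters' processing notes; an aligner was not given in the sources used here. Deposited RPKM values are scaled to all reads: lengths computed with that sum were whole numbers to 0.01 bp in 100% of cases above 20 counts. The 5 entries of unassigned reads (96.9% to 98.5% of reads) entered neither library sizes nor tests. Values of genes with near-identical copies are uncertain, since multiply aligned reads were not assigned.

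The quasi-likelihood test of edgeR 4.0.16 (R 4.3.3) was applied to the counts, with Benjamini-Hochberg adjustment over 6181 genes and a threshold of 0.05, with TMM factors, filterByExpr (minimum count 10, minimum total 15), library sizes summed over the genes kept, and all 6 libraries in 1 fit of group means with 3 residual degrees of freedom. Standard errors are the log2 fold change over the square root of F. The procedure was also run on simulated counts with a common dispersion and genes changed on willow only. No error rate for these data is drawn from that run. The design text calls the cultures duplicates; replicates of a condition differed beyond sampling noise (chi-square per degree of freedom 6.81 to 11.5). Alternatives were DESeq2 1.42.0, 3 other scalings, 2 other filters, a replicate block, fits of 4 libraries, each library left out, and limma-trend (limma 3.58.1) on log2(RPKM + 1). A fold change on that last scale understates the change of low genes. Ratios have exact 95% intervals for counting error only. The genes and lists were chosen with earlier results of these data known. Named genes are the 8 members, the listed identifiers with a symbol, the nearest profiles (3 per member were computed) and the next gene on each side, and others are said to be chosen after their values were seen or are given to account for a list. RefSeq served for names and gene order only, since its assembly is that of another strain.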

Additional observations from a re-analysis of the deposited data

How the results depend on the processing

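Over 15 alternatives per comparison, the calls of axhA, aguA, abfB, An08g01710, aceA and faeA on willow and after glucose addition all kept their direction and passed the test. On log2(RPKM + 1) the willow estimates of abfB and An08g01710 were 0.99 and 1.01. The number of side-chain genes called higher on willow was 6 or 7, and lower after glucose 6 or 7. Against glucose 48 h it was 0 to 1 higher with single libraries left out, the 1 being abfB. Signs turned there without being called. With single libraries left out axhA ranged from -0.85 to 0.61 (0.17 without glucose culture B, 0.61 without glucose-added culture A), aceA from -1.13 to 0.12 (without glucose culture A) and faeB from -1.27 to 0.31 (without glucose culture B).

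Counts over all genes changed more, and the cause was not tested beyond the smaller number of genes or libraries. On willow 1089 were higher and 836 lower. Requiring 50 counts in 2 libraries, with 2743 genes tested, gave 554 and 502, limma-trend on RPKM 478 and 1769, and total-count scaling 834 and 1532. The share of calls that were higher went from 56.6% to 35.2% with total-count scaling and 21.3% on RPKM, and total-count scaling moved the median of all genes by -0.43 (log2), RPKM by -0.35 and upper quartile scaling by -0.12. After glucose, 1066 were higher and 1270 lower. The stricter filter gave 596 and 701, limma-trend gave 515 lower, and single libraries left out gave 645 to 1036 and 773 to 1260, both lowest without glucose-added culture A. Here total-count scaling moved the share of higher calls from 45.6% to 59.9% and RPKM to 63.1%, with median shifts of 0.30 and 0.15. Against glucose 48 h, 619 were higher and 548 lower. The stricter filter gave 372 higher, limma-trend 183 higher, and single libraries left out 315 to 680 and 234 to 631. The lowest of these were without glucose culture B (315 and 304) and without glucose-added culture A (331 and 234). The share of higher calls was 53.0%, and 24.1% on RPKM, with median shifts of -0.14 for total counts and -0.20 for RPKM.

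The replicate letters were shared between conditions without any label that ties the cultures. A-to-B differences correlated at -0.01, 0.12 and 0.17 between the 3 conditions. With the letter as a replicate block, edgeR called 7 side-chain genes higher on willow, beside 1127 of all 6181 tested genes. These 7 included faeB (1.52, edgeR adjusted p = 0.0310). After glucose this fit called 7 lower, beside 1315 of all tested genes, and the count filter applies as above. With 3 counts over both libraries of a group at 1.93 CPM on glucose, 3.66 on willow and 2.42 after glucose, depth limits what can be said of abfA and of faeA outside willow.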
